A study of Homo sapiens with 4 samples.

Results

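Immune checkpoint ligands and IDO1 were examined in HCC1954, an established human breast cancer cell line with amplified HER2. The genes are CD274, PDCD1LG2, CD276, VTCN1, PVR, NECTIN2, LGALS9, HLA-G, CD47 and IDO1, that is 10 of the 58735 genes in the count table, chosen by their symbol. RNA-seq libraries came from cells with a scrambled control hairpin (shCON, 2 samples) and from cells with a hairpin against ZDHHC15 (shZDHHC15, 2 samples), a palmitoyltransferase that attaches fatty acids to proteins. Both groups carried a GIPZ hairpin vector, and the study asked what the loss of ZDHHC15 did to gene expression. The series describes the knockdown as stable, while the treatment protocol describes a transient transfection of the plasmids. The study's methods also mention a screen of monoclonal cultures for the hairpins by western blot. Whether these samples are clones is not stated, and a part of clone differences in the results was not tested. The labels number the samples 1 and 2 and do not say whether these were separate cultures or different hairpins. The p-values therefore measure only the spread between these samples.

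Checkpoint ligands are surface or secreted proteins that immune cells read through inhibitory receptors. CD274 (PD-L1) and PDCD1LG2 (PD-L2) bind PD-1 on T cells, PVR and NECTIN2 bind TIGIT and CD226, LGALS9 (galectin-9) binds TIM-3, HLA-G binds LILRB receptors, and CD47 signals to SIRPA on macrophages to stop phagocytosis. CD276 (B7-H3) and VTCN1 (B7-H4) are B7 family proteins whose receptors are less well defined, and IDO1 is an enzyme that degrades tryptophan to kynurenine. Interferon-gamma is a known inducer of CD274, PDCD1LG2, LGALS9 and IDO1, and interferon-responsive promoters often hold interferon-stimulated response elements (ISRE) or gamma-activated sites (GAS).

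The promoter windows of the 2 interferon-responsive ligands with an entry in the RefSeq table are shown because one of them, LGALS9, rose in shZDHHC15 and the other, CD274, did not pass the test. Sequences are from RefSeq on GRCh38.p14, on the plus strand, and capitals mark the matches to the ISRE core GAAANNGAA or the GAS core TTCNNNGAA on either strand. The CD274 stretch, chr9:5450292-5450502, holds the 211 bases that lie before the first annotated exon. The LGALS9 stretch, chr17:27631165-27631194, is limited to 30 bases around its match, because the LGALS9 window begins inside an annotated exon. That window starts at 27630938, while the gene as counted starts at 27629798, so the RefSeq start used here lies inside the counted gene.
CD274: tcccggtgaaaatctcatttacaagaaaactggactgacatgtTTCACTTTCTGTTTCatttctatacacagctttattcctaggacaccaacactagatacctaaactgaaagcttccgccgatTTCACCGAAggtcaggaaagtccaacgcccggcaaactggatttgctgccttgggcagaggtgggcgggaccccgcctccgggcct
LGALS9: ccaagttgctttggtTTCTATTTCtttgtt
CD274 had 2 overlapping ISRE core matches, at -207 to -199 and -201 to -193 from the RefSeq start, and 1 GAS core match at -125 to -117. LGALS9 had 1 ISRE core match, from -8 to 1. Of 35116 promoter windows of the same length (250 bases before to 50 after the start), 8.11% held the ISRE core and 7.66% the GAS core. The NF-kappaB core GGGANTTCC, present in 1.85% of windows, was found in no window of these genes, and the TEAD core GGAATG, present in 14.0%, was found once, in PVR at -182 to -177. A table entry was found for 8 of the 10 genes, PDCD1LG2 and IDO1 being the others. A match is a description of letters and not of binding.

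The 4 libraries held between 17560982 and 19118704 counts on genes. ZDHHC15 had 17617 and 15716 counts in the shCON samples and 0 in both shZDHHC15 samples, at least 5891-fold lower against a floor of 3 counts per library. The tissue label was checked with markers. ERBB2, the HER2 gene, had 92598 to 101910 counts in each sample. The 16 leukocyte markers summed to 11.1 and 13.1 CPM (counts scaled to the TMM library size) in shCON and 7.09 and 7.54 CPM in shZDHHC15, 6 of them were at 0 in every sample, and PTPRC, which marks all leukocytes, had 1 to 4 counts. CSF1R, with 68 to 177 counts, made up most of the leukocyte sum. Of the 8 epithelial and HER2 markers 6 were lower and 1 higher in shZDHHC15 by the test described below. That is 75.0% lower and 12.5% higher, beside 20.3% and 21.7% of all tested genes. The falls ranged from -0.24 on the log2 scale for ERBB2 to -1.62 for KRT8. The sum of the 8 markers went from 19470 and 21000 CPM to 11740 and 11960 CPM, mostly through the keratins KRT8, KRT18 and KRT7. The part of this shift in the results below was not tested.

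Of the 10 genes 9 were abundant enough to be tested. LGALS9, IDO1 and CD47 were higher in shZDHHC15, PVR and PDCD1LG2 were lower, and CD274, CD276, VTCN1 and NECTIN2 did not pass. The test was edgeR's quasi-likelihood test on raw counts with Benjamini-Hochberg adjustment over 15817 genes, and a gene was called at an adjusted p under 0.05. In this comparison 42.0% of all tested genes were called, 21.7% higher and 20.3% lower. Against that background 55.6% of the 9 tested genes were called, 33.3% higher and 22.2% lower, a share near the background that is no result about the group. The median log2 fold change of the 9 genes was -0.05, beside 0.0154 over all tested genes. In such bulk samples fewer cells expressing a gene and less RNA per cell cannot be told apart.

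**Figure D1:**
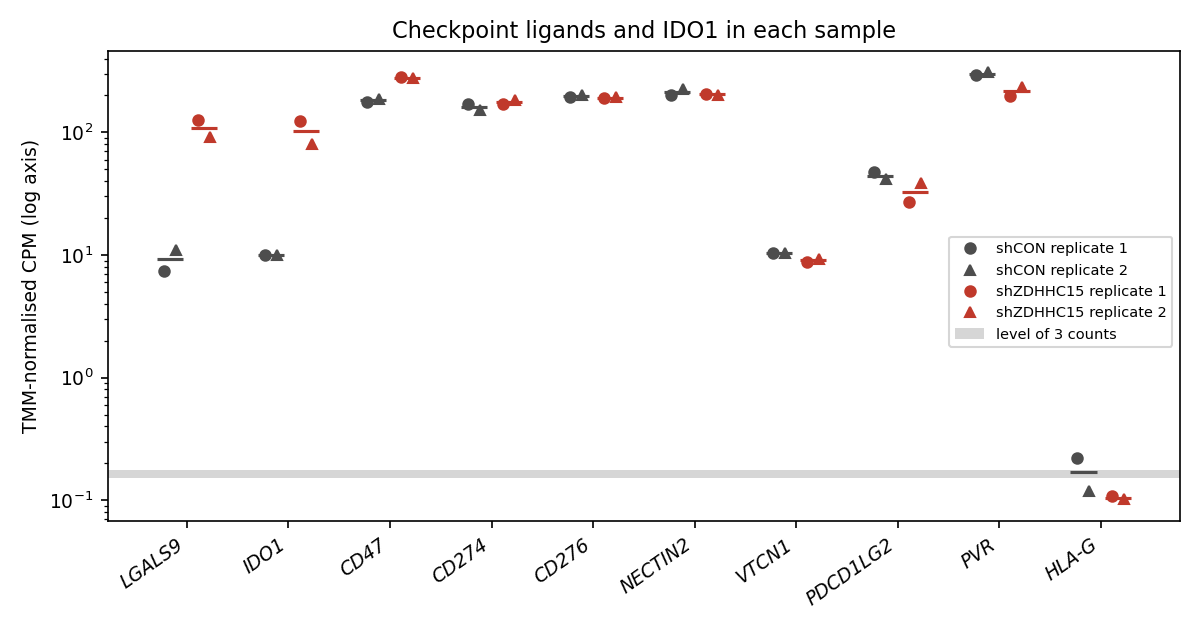
Level of each gene in each sample, in TMM-normalised CPM on a log axis, with circles for replicate 1, triangles for replicate 2 and a short line for the group mean of 2 samples. LGALS9 and IDO1 went from about 10 CPM in shCON to over 80 CPM in both shZDHHC15 samples, and HLA-G lay near the grey band that marks 3 counts.

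LGALS9 (chr17:27629798-27649560, plus strand), the secreted lectin galectin-9, showed the largest rise of the 9 tested genes. It was counted 136 and 184 times in shCON and 2329 and 1806 times in shZDHHC15. These counts correspond to 7.46 and 10.9 CPM against 125 and 92.0 CPM, so the lowest shZDHHC15 sample lay far above the highest shCON sample. The log2 fold change was 3.57 (SE 0.178), or 11.9-fold with a 95% interval of 9.11 to 15.4, and the adjusted p of edgeR's quasi-likelihood test was 1.06e-09. LGALS9 ranked 96 from the top among the 15817 fold changes. Its transcripts share stretches of at least 97% identity with LGALS9B (258 bases) and LGALS9C (885 bases), so reads could be split between them. In shCON and shZDHHC15 the counts were 35 and 31 against 31 and 34 for LGALS9B and 20 and 25 against 15 and 9 for LGALS9C, so neither moved with LGALS9.

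IDO1 (chr8:39902275-39928444, plus strand), which catalyses the first step of tryptophan degradation, was close behind. It had 182 and 169 counts in shCON and 2295 and 1591 counts in shZDHHC15. In CPM the levels were 9.98 and 10.0 against 123 and 81.1, with a mean of 102 ± 29.8 (SD, n = 2) in shZDHHC15. The shCON samples were nearly equal and the shZDHHC15 samples differed from each other, yet the groups did not overlap. The rise was 10.2-fold with a 95% interval of 7.80 to 13.3 (log2 fold change 3.35, SE 0.181, adjusted p = 2.56e-09 by edgeR's quasi-likelihood test), rank 115 from the top. IDO1 shares 120 exon bases with AC007991.4 on the opposite strand, which had at most 11 counts in a sample.

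CD47 (chr3:108043094-108091862, minus strand), the signal against phagocytosis, rose by less and with little spread. Its counts were 3252 and 3150 in shCON and 5244 and 5399 in shZDHHC15. This was 183 ± 5.92 CPM (SD, n = 2) against 278 ± 4.66 CPM (SD, n = 2), with a gap between the groups far wider than the difference within either. The fold change was 1.52 with a 95% interval of 1.34 to 1.74 (log2 0.61, SE 0.0890, adjusted p = 7.76e-05, edgeR's quasi-likelihood test). In rank it stood 2704 from the top, so many genes rose more.

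PVR (chr19:44643798-44663583, plus strand), also called CD155, the ligand of TIGIT and CD226, fell. Its counts were 5353 and 5227 in shCON and 3710 and 4562 in shZDHHC15. The levels were 294 and 310 CPM against 199 and 232 CPM, so every shZDHHC15 sample was below both shCON samples. The log2 fold change was -0.48 (SE 0.0972, 95% interval -0.69 to -0.28) and the adjusted p 0.00109 by edgeR's quasi-likelihood test, a level 0.715 times that of shCON. PVR shares 121 exon bases on the same strand with CEACAM19, whose counts were 272 and 204 in shCON and 391 and 408 in shZDHHC15.

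NECTIN2 (chr19:44846175-44889228, plus strand), the CD112 ligand of TIGIT, PVRIG and CD226 encoded near PVR, did not pass. It had 3645 and 3805 counts in shCON and 3805 and 3995 in shZDHHC15, or 200 and 226 CPM against 204 and 203.5 CPM. The groups overlapped, and the log2 fold change was -0.06 with a 95% interval of -0.26 to 0.14 (adjusted p = 0.637, edgeR's quasi-likelihood test), or a fold change between 0.835 and 1.10. Per length, as CPM per kilobase of gene, the ratio of PVR to NECTIN2 was 1.56 and 1.46 in shCON and 1.04 and 1.22 in shZDHHC15.

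PDCD1LG2 (chr9:5510570-5571254, plus strand), which encodes PD-L2, was called lower, but the call rested on 1 library. Counts were 861 and 701 in shCON and 504 and 759 in shZDHHC15. The CPM values were 47.2 and 41.6 against 27.1 and 38.7, so replicate 2 of shZDHHC15 lay only slightly under the lower shCON sample. The log2 fold change was -0.43 (SE 0.148, 95% interval -0.75 to -0.12, adjusted p = 0.0285 by edgeR's quasi-likelihood test). Without shZDHHC15 replicate 1 it was -0.20 with an adjusted p of 0.386 in the same edgeR test. The call was also lost when libraries were scaled by their size alone (adjusted p = 0.0819 by edgeR) and when genes of low count were kept in (adjusted p = 0.146 by edgeR), within a range of 0.00984 to 0.146 over 8 alternatives.

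CD274 (chr9:5450503-5470566, plus strand), which encodes PD-L1 and lies 40.0 kb from PDCD1LG2, did not pass. Its counts were 3091 and 2568 in shCON and 3156 and 3613 in shZDHHC15. At 169.5 and 152 CPM against 169.5 and 184 CPM the groups met at the same value. The fold change was 1.10 with a 95% interval of 0.953 to 1.27 (adjusted p = 0.280, edgeR's quasi-likelihood test), which holds no rise of the size seen for LGALS9 or IDO1. The CD274 to PDCD1LG2 ratio per length was 2.07 and 2.11 in shCON and 3.60 and 2.74 in shZDHHC15, and the LGALS9 to CD274 ratio went from 0.0316 and 0.0515 to 0.530 and 0.359.

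The other B7 ligands also did not pass. CD276 (chr15:73683966-73714518, plus strand) had 3567 and 3378 counts in shCON and 3538 and 3789 in shZDHHC15, which is 196 and 200 CPM against 190 and 193 CPM. Its groups did not overlap in CPM, but the log2 fold change was only -0.05 with a 95% interval of -0.24 to 0.14 (adjusted p = 0.702, edgeR's quasi-likelihood test). VTCN1 (chr1:117143587-117210960, minus strand) was counted 189 and 174 times in shCON and 164 and 183 times in shZDHHC15, or 10.4 and 10.3 CPM against 8.81 and 9.32 CPM. Its log2 fold change of -0.19 had a wider 95% interval of -0.54 to 0.16 (adjusted p = 0.379, edgeR's quasi-likelihood test).

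HLA-G (chr6:29826967-29831125, plus strand), a non-classical HLA class I gene known from the placenta, was at the detection floor. It had 4 and 2 counts in shCON and 2 and 2 in shZDHHC15, was not tested, and is given no fold change. A difference in HLA-G was not detectable at this depth.

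**Figure D2:**
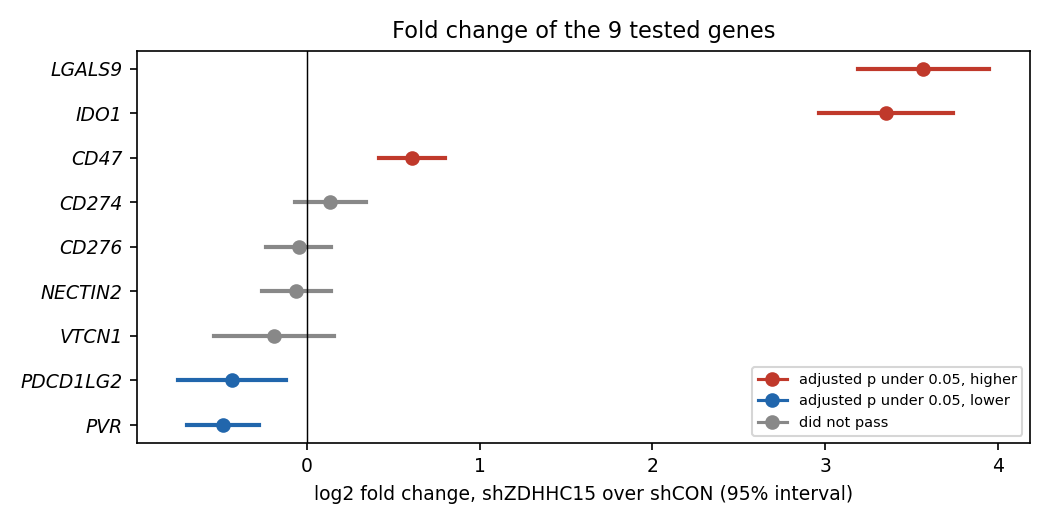
Log2 fold change of the 9 tested genes, shZDHHC15 over shCON, as points with 95% intervals from the edgeR fit (2 samples a group), coloured by whether the adjusted p was under 0.05. LGALS9 at 3.57 and IDO1 at 3.35 stand apart from the other 7 genes, which lie between -0.48 and 0.61.

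Compared per length, PVR was the most abundant of the 10 genes in both groups, at 85.75 CPM per kilobase in shCON and 61.3 in shZDHHC15. In shCON the order went on with NECTIN2 (56.8), CD274 (39.2), CD276 (35.7), CD47 (22.2) and PDCD1LG2 (18.8), and then fell to VTCN1 (3.42), IDO1 (3.07), LGALS9 (1.61) and HLA-G (0.0959), with no overlap between the ranges of neighbours. In shZDHHC15 IDO1 moved to 31.3, where its range of 24.9 to 37.8 overlapped that of CD47 (33.4 to 34.2). LGALS9 reached 19.0, and its lowest sample, 16.1, was under the highest of PDCD1LG2, 16.35. The per-length levels of IDO1 and LGALS9 thus passed from below VTCN1 to the level of CD47 and PDCD1LG2, respectively. This order rests on the deposited gene lengths, which were 3261 bases for IDO1, 8225 for CD47, 5714 for LGALS9 and 2365 for PDCD1LG2. In mean CPM of shZDHHC15, IDO1 at 102 was below CD47 at 278, and LGALS9 at 108.5 was above PDCD1LG2 at 32.9.

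Among the 5 called genes shZDHHC15 replicate 1 lay farther from the shCON mean than replicate 2 in 5 of 5. Over all called genes the same held for 4668 of 6644, or 70.3%. The lowest PDCD1LG2 and PVR values and the highest LGALS9, IDO1 and CD47 values were thus all in that 1 library.

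Other ligands read by T cells were described from a list of 30 genes, of which 21 were tested. Of these 9 were higher and 1 was lower, so that 47.6% were called beside 42.0% of all tested genes. That is 42.9% higher and 4.76% lower, beside 21.7% and 20.3% of all tested genes. The median log2 fold change was 0.23 beside 0.0154 over all tested genes. Among the 9, TNFRSF14 (4 and 8 counts in shCON, 22 and 18 in shZDHHC15) passed the filter on low counts through shZDHHC15 alone. ICOSLG, also among them, shares 3233 bases at 99.4% identity with FP565260.3. CEACAM1, a homophilic adhesion protein and a TIM-3 ligand like LGALS9, rose from 121 and 101 counts to 1030 and 850 counts (log2 fold change 2.96, SE 0.162, adjusted p = 2.77e-09 by edgeR's quasi-likelihood test). BTN3A3 and BTN3A1, butyrophilins of the family seen by gamma-delta T cells, rose by 2.78 and 2.70 on the log2 scale, and these paralogs share stretches of over 97% identity. LGALS1, another galectin, moved opposite to LGALS9, from 3894 and 4478 counts to 1537 and 1676 counts (log2 fold change -1.51, SE 0.110, adjusted p = 7.34e-08 by edgeR's quasi-likelihood test). LGALS3 did not pass, at -0.11 on the log2 scale.

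Of 10 tested NK-cell ligands 3 were higher and 3 lower, 30% in each direction beside 21.7% and 20.3% of all tested genes, with a median log2 fold change of -0.27. HLA-F, a non-classical class I gene like HLA-G, had 224 and 215 counts in shCON and 1010 and 850 in shZDHHC15, a log2 fold change of 1.96. HLA-E, the ligand of the inhibitory receptor NKG2A, rose by 0.40, and CLEC2D, the ligand of CD161, rose by 2.76 from 10 counts in both shCON samples. CLEC2D passed the filter on low counts only through the shZDHHC15 samples, so its call says nothing of the NK-cell ligands as a group. The NKG2D ligands called were lower, namely RAET1G (-1.79), ULBP2 (-0.70) and MICA (-0.40). CLEC2D shares 193 bases at 97.9% identity with the abundant NPM1, RAET1G overlaps the antisense gene RAET1E-AS1, and MICA shares 62 exon bases with HCP5.

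Around IDO1, the kynurenine pathway list had 3 higher and 3 lower of 12 tested genes (median log2 fold change -0.10). These shares, 25.0% in each direction, were near the 21.7% and 20.3% of all tested genes. KYNU, which cleaves kynurenine and hydroxykynurenine, rose by 1.17 on the log2 scale, and KMO, which hydroxylates kynurenine, by 1.20. WARS, the tryptophanyl-tRNA synthetase that uses the same amino acid, rose by 1.78. The amino acid transporter subunits SLC3A2 (-0.89) and SLC7A5 (-0.42) and the formamidase AFMID (-0.53) fell. TDO2, the liver-type enzyme for the same step as IDO1, had 1 to 18 counts and did not pass, and IDO2 had at most 6 counts in a sample. The IDO1 to KYNU ratio per length was 0.517 and 0.542 in shCON and 2.92 and 1.90 in shZDHHC15. It rests on deposited gene lengths of 3261 bases for IDO1 and 17600 for KYNU. The lengths of the transcripts expressed here were not determined. Without scaling by length, IDO1 was at 9.98 and 10.0 CPM and KYNU at 104 and 99.7 CPM in shCON. In shZDHHC15 the values were 123 and 81.1 CPM against 228 and 230 CPM, so IDO1 stayed below KYNU. KMO shares 1691 exon bases with OPN3 on the opposite strand, which also had more counts in shZDHHC15 (339 and 341 against 153 and 160).

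Of the 14 tested genes of the interferon-gamma signalling list 12 were higher and 0 lower, with a median log2 fold change of 1.03. That is 85.7% higher, beside 21.7% higher and 20.3% lower of all tested genes. STAT2 and IRF9, partners in the complex that binds ISRE sites, rose by 1.90 and 1.88 on the log2 scale, and JAK2, encoded on chromosome 9 as CD274 is, by 1.34. IRF1, a direct activator of CD274, rose by 0.49. IFNG itself had 0 counts in all 4 samples, and the suppressors SOCS1 (0.38) and PTPN2 (0.21) did not pass. The list was chosen with results of these samples known, so its direction is no independent evidence. Whether the rise of LGALS9 and IDO1 depended on these factors was not tested.

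Of 18 tested genes that handle PD-L1 protein 5 were higher and 6 lower, with a median log2 fold change of 0.03. The shares were 27.8% higher and 33.3% lower, beside 21.7% and 20.3% of all tested genes. Lower were CMTM4 (-1.13) and CMTM6 (-0.83), membrane proteins that protect PD-L1 from degradation, and the deubiquitinase OTUB1 (-0.58). Higher were B3GNT3 (1.49), a glycosyltransferase acting on PD-L1, and the surface proteases ADAM17 (0.73) and ADAM10 (0.56). Without shZDHHC15 replicate 1 the count of called genes on this list was 7 in place of 11. PD-L1 protein was not measured in these data.

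On the CD47 axis 3 of 7 tested genes were higher, SIRPG among them, and 3 lower, and 85.7% were called beside 42.0% of all genes. That is 42.9% in each direction, beside 21.7% higher and 20.3% lower of all tested genes. SIRPA, the CD47 receptor, had 1692 and 1615 counts in shCON and 2862 and 2782 in shZDHHC15, a log2 fold change of 0.65. CALR, a pro-phagocytic signal when at the surface, rose by 0.46. THBS1, a secreted ligand of CD47, fell from 41391 and 33446 counts to 6310 and 9700 (log2 fold change -2.35, SE 0.140, adjusted p = 7.76e-09 by edgeR's quasi-likelihood test). QPCTL, the enzyme that modifies the SIRPA-binding site of CD47, was lower (-0.43), as was the separate phagocytosis inhibitor CD24 (-0.33). Of the 12 receptors of these ligands, 6 were at 0 in every sample, and SIRPA and SIRPG alone were tested. SIRPG had 4 and 1 counts in shCON and 12 and 11 in shZDHHC15. It passed the filter on low counts through shZDHHC15 alone, so its call says nothing of the receptors or of the CD47 axis as a group.

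Some of these genes share reads with others, and whether counting used the strand is not stated. IRF9 shares 1838 exon bases on the same strand with AL136295.5, which had 27 and 14 counts in shCON and 77 in both shZDHHC15 samples. SIRPA has a stretch of 1003 bases at 97.2% identity with SIRPB1, whose counts were 46 and 34 against 71 and 93. On the opposite strand QPCTL shares 54 exon bases with SNRPD2 (6595 and 7056 counts against 4822 and 5409) and ADAM17 shares 1323 with IAH1 (432 and 399 against 251 and 329).

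Position on the chromosome was compared through the 3 nearest tested protein-coding genes on each side. Counting each neighbour once and leaving out the 10 genes themselves, 17 of 52 neighbours were higher and 16 lower, beside 21.7% and 20.3% of all tested genes, with a median log2 fold change of -0.07. Of the 6 neighbours of LGALS9 4 were higher, NOS2 among them, and 1 was lower, C17orf51 at a distance of 6055.3 kb. KSR1, a MAPK scaffold 3.4 kb away, rose by 1.10 on the log2 scale, and NOS2, the inducible nitric oxide synthase 107.2 kb away, went from 1 count in both shCON samples to 128 and 138 counts. NOS2 passed the filter on low counts through shZDHHC15 alone, so its call says nothing of the neighbours as a group. The nearest tested neighbour of IDO1, TCIM, lay 225.0 kb away with a rise of 0.86, and 3 of the other 5 were lower. IDO2 (chr8:39934614-40016391) lies between IDO1 and TCIM but was too low to be tested.

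Near CD274 and PDCD1LG2 the neighbours differed among themselves. PLGRKT, 12.6 kb from CD274, was lower (-0.32), ERMP1 was higher (0.46), and INSL4, an insulin-like peptide gene, fell from 224 and 259 counts to 29 and 33 counts (log2 fold change -3.08, adjusted p = 1.04e-07 by edgeR's quasi-likelihood test). Near PVR, BCL3, an NF-kappaB cofactor 84.1 kb away, rose by 1.05, and IGSF23 fell by 2.00 on the log2 scale from few counts (18 and 23 against 1 and 10). Of the 6 neighbours of CD47 2 were higher and 1 lower, with a median log2 fold change of -0.11. BBX, at 231.8 kb, rose by 0.71, while the nearest neighbour, at 69.0 kb, did not pass (-0.29).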

How the data were processed

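RNA of 4 HCC1954 samples was analysed, 2 shCON and 2 shZDHHC15, grouped by their titles. The authors deposited raw counts of reads per gene, not normalized, for 58735 genes, together with each gene's position and length. Libraries were made with the NEBNext Ultra kit. The submitters' processing notes name HISAT2, StringTie, SAMtools and hg38 without roles, and the counting tool, its strand setting and the annotation release are not given in the sources used here. All 58735 identifiers had the same start, end and symbol in GENCODE 29. Every count column was used and 0 were set aside.

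Genes were filtered with filterByExpr (15817 kept), scaled by TMM and tested with edgeR 4.0.16 (glmQLFit and glmQLFTest, legacy = FALSE; R 4.3.3, limma 3.58.1) with Benjamini-Hochberg adjustment over all tested genes. TMM factors ranged from 0.962 to 1.03. The F statistic and the fold change gave the standard errors. CPM values use TMM library sizes, and levels between genes were compared per kilobase of the deposited gene length. A count of 0 allows up to 3 counts. Intervals and floors cover the spread modelled by edgeR or counting error only. For a single gene an exact two-sided permutation test of 2 samples against 2 cannot go below 0.333, so none was used. Replicates differed by more than counting noise (chi-square per degree of freedom 8.32 in shCON over 15202 genes and 6.79 in shZDHHC15 over 15741 genes).

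The 10 genes and all lists were chosen with earlier results of these data known. Named are these 10 genes, ZDHHC15, the 3 largest called rises and falls of each pathway list (group mean of 50 counts or more on the higher side), and called neighbours, except that 1 gene under this rule is not reported. Other genes named (IRF1, JAK2, IFNG, SOCS1, PTPN2, LGALS3, TNFRSF14, ICOSLG, TDO2, IDO2, SIRPG and markers) were chosen after their values were seen. Overlapping exons came from GENCODE 29, and near-identical stretches of at least 150 bases and 97% identity from BLAST 2.17.0. Tests were checked on simulated counts. Tables were joined with Python 3.11.15 and pandas 2.3.3. Alternatives were 3 other scalings (DESeq2 size factors, upper quartile, library size only), the Wald test of DESeq2 1.42.0, 2 other filters (none, or 10 counts or more in all samples), legacy quasi-dispersion, the replicate block, and leaving out each sample.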

Additional observations from a re-analysis of the deposited data

How the results depend on the processing

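Over 8 alternatives and 4 fits that each left out 1 sample, 102 of 108 values of the 9 tested genes kept their direction and their side of the threshold. The exceptions were PDCD1LG2, CD276 and NECTIN2. PDCD1LG2 was no longer called with library size only (-0.36), with no filter on low counts (-0.45) or without shZDHHC15 replicate 1, and leaving out samples gave -0.72 to -0.20. With library size only, CD276 was 0.027 and NECTIN2 0.015 on the log2 scale, and NECTIN2 ranged from -0.18 to 0.017 when samples were left out. None of these had been called. Genes called higher were 2282 with no filter on low counts against 3427 with it, and the cause was not tested. Called genes of PD-L1 protein handling ranged from 7 (without shZDHHC15 replicate 1) to 12 when samples were left out. In the fits without 1 sample the lone sample of its group is assumed to vary like the other group.

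With the replicate block 7225 genes were called in place of 6644, and no call among the 9 genes changed (PDCD1LG2 -0.45, adjusted p = 0.00984 by edgeR). Deviations of same-numbered samples correlated at 0.0344 over tested genes, and with 2 pairs the numbers only name samples. HLA-G, with 2 to 4 counts a sample, is given no value under any alternative, including those without the filter on low counts. With 2 samples a group a small change of VTCN1 was not resolved. The call of PDCD1LG2 depended on the setting and on shZDHHC15 replicate 1.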
